A study of Mus musculus with 50 samples.

Results

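Microglia carry a set of surface receptors that hold their activation in check, and 10 of these inhibitory receptors were examined in hippocampal microglia after early-life stress, with age and after an immune challenge. The 10 genes, Cd200r1, Sirpa, Siglece, Cd22, Cd33, Pilra, Lair1, Lilrb4a, Cd300a and Havcr2, were taken by their symbols from the 53700 genes counted, and each matched 1 gene. All 10 passed the filter on low counts (at least 1 CPM, the count relative to the scaled library size, in more than 2 mice), as did 16696 genes in all.

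Poly-A RNA came from viable single CD45int CD11b+ cells sorted from the hippocampus of 50 male C57BL/6J mice, 1 library per mouse. Control (CTR) litters had standard housing, and early-life stress (ELS) litters had limited bedding and nesting material from P2 to P9. There were 12 CTR and 13 ELS mice at P9. At P200 there were 7 CTR and 6 ELS mice given PBS and 7 CTR and 5 ELS mice given LPS, and a group is named by age, condition and injection (P200-CTR-PBS). Adult mice received PBS or 1 mg/kg of LPS, a bacterial cell wall component, into the peritoneum and were killed 3 h later, whereas P9 mice were not injected. Myelin was removed on Percoll only in the adults, so that age, injection and this step cannot be told apart between P9 and P200. The mice came from 19 nests, taken here as the number before the point in each mouse label and counted apart at each age. Within an age a nest held 1 condition only, and every P200 nest held both PBS and LPS mice.

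The inhibitory receptors work at the cell membrane by recognising a ligand on a neighbouring cell or in the matrix. Most carry tyrosine motifs in their tails that Src family kinases such as Lyn phosphorylate, after which the phosphatases encoded by Ptpn6, Ptpn11 and Inpp5d dock there and dampen activating signals that run through Tyrobp, Fcer1g and Syk. Cd200r1 binds neuronal Cd200 and signals instead through Dok adaptors, and Sirpa binds Cd47, the "don't eat me" signal of healthy cells. Siglece, Cd22 and Cd33 are lectins for sialic acid on cell surface sugars, and Pilra binds sialylated glycoproteins such as Npdc1 and Pianp. Lair1 binds collagens and C1q, Cd300a binds lipids exposed on dying cells, Lilrb4a belongs to the leukocyte immunoglobulin-like receptors, and Havcr2 (TIM-3) has galectin-9, Ceacam1, Hmgb1 and phosphatidylserine among its ligands.

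Each library held 5152838 to 42231258 counts (median 19960409). Fewer genes had a count in 3 mice than in the others: 12482 and 15731 genes in mice P9_19.3_ELS and P9_19.2_ELS and 12854 in mouse P200_1.1_CTR_PBS, against at least 16485 in the other 47. All 10 microglia markers were detected in every group, and their summed level was 38556 to 72196 CPM at P9 and 68757 to 90853 CPM at P200. Markers of T and NK cells summed to at most 1.35 CPM in any mouse, and Ighm led the list of B cell markers. The list for border macrophages summed to 475 to 921 CPM at P9 and to 1.87 to 11.8 CPM at P200. Of that list Mrc1 alone gave 461 to 910 CPM at P9, and the other 6 genes together gave 4.46 to 55.5 CPM.

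On GRCm39, 4 of the 10 genes are on chromosome 7: Siglece (ENSMUSG00000030474, chr7:43298405-43309607), Cd33 (ENSMUSG00000004609, chr7:43173634-43193875), Cd22 (ENSMUSG00000030577, chr7:30564827-30579767) and Lair1 (ENSMUSG00000055541, chr7:3995928-4066269), all on the minus strand. Chromosome 11 holds Cd300a (ENSMUSG00000034652, chr11:114768840-114795480) and Havcr2 (ENSMUSG00000020399, chr11:46345673-46374149) on the plus strand. The others are Sirpa (ENSMUSG00000037902, chr2:129434039-129474148, plus strand), Pilra (ENSMUSG00000046245, chr5:137820214-137834543, minus strand), Lilrb4a (ENSMUSG00000112148, chr10:51367027-51372707, plus strand) and Cd200r1 (ENSMUSG00000022667, chr16:44586096-44615343, plus strand). All 10 are protein-coding, and a value is the count over the exons of the gene.

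Lair1, Havcr2 and Siglece rose with age in both conditions, as described further on, and their promoters are shown so that their letters can be compared. RefSeq promoters (250 bases before to 50 after the start, table build GRCm38.p6) were found for 7 of the 10 genes, and each matched GRCm39 exactly once. Sirpa, Cd200r1 and Lilrb4a had no entry. The capitals mark GAGGAA, the core letters bound by the myeloid factor PU.1, on either strand.
Lair1, chr7:4066154-4066453, minus strand: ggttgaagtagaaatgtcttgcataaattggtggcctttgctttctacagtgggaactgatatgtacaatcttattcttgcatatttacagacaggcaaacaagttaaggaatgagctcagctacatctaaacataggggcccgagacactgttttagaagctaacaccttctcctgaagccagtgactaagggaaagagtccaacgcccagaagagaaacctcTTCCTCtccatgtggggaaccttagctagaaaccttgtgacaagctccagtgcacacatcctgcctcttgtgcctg
Havcr2, chr11:46345508-46345807, plus strand: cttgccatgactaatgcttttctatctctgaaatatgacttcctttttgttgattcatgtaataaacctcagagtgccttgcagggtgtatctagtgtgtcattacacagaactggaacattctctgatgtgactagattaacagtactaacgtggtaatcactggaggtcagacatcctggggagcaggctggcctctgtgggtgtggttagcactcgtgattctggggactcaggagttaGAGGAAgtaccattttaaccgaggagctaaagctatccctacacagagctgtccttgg
Siglece, chr7:43309536-43309835, minus strand: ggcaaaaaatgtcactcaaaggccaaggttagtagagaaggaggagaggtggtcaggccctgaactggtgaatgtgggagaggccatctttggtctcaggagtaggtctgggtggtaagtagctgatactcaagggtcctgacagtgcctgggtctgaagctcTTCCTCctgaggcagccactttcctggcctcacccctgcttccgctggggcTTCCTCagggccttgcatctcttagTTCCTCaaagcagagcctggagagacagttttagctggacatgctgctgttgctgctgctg
The Siglece window held 3 such matches, and the Lair1 and Havcr2 windows held 1 each. Matches were found in 6 of the 7 promoters, the exception being Cd22, and in 28.3% of 32851 promoters of the same length. The letters TGACTCA (AP-1) and TTCCNGGAA (STAT) and an NF-kappaB consensus, also searched on both strands, were in none of the 7 and in 5.202%, 1.15% and 0.155% of all promoters. A match is a description of the letters in the window.

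Per length of exon, Sirpa was the most abundant of the receptors and Lilrb4a the least by mean level in all 6 groups. After LPS, Lilrb4a and Cd22 were close, with means of 2.56 and 2.62 CPM per kb in P200-CTR-LPS mice. In P200-ELS-LPS mice these means were 2.32 and 2.82, and the ranges over mice overlapped in both LPS groups. The divisor was the full exon length, although 35.1% of the Lilrb4a exon bases are shared with another gene on the same strand. Reads there may be assigned to neither gene, so the order of Lilrb4a and Cd22 after LPS is uncertain. Siglece shares 39.3% of its exon bases with a gene on the opposite strand, and other members, Pilra among them, share smaller parts. The strand setting of the counting is not given in the sources used here. If strand was ignored, reads in such bases may also be assigned to neither gene. The level of Siglece may then be too low, and its place below Havcr2 and Cd300a and its share are uncertain. In P200-CTR-PBS mice Sirpa had 177 ± 29.9 CPM per kb of exon (SD, n = 7), followed by Lair1 with 126 ± 20.6, Cd300a with 83.9 ± 6.29, Havcr2 with 61.99 ± 9.68, Siglece with 57.5 ± 3.90 and Cd33 with 38.8 ± 4.18. Cd200r1 with 10.2 ± 1.42, Pilra with 8.98 ± 2.04, Cd22 with 2.94 ± 0.985 and Lilrb4a with 0.168 ± 0.169 CPM per kb formed a lower tier. The ranges over mice of Sirpa and Lair1, of Cd300a and Havcr2, of Havcr2 and Siglece, and of Cd200r1 and Pilra overlapped, whereas those of Lair1 and Cd300a, of Siglece and Cd33, of Cd33 and Cd200r1, of Pilra and Cd22 and of Cd22 and Lilrb4a did not. The summed level of the 10 receptors was 459.7 ± 38.8 CPM per kb in P9-CTR mice and 568 ± 43.0 in P200-CTR-PBS mice. Sirpa held 50.8% ± 3.57 of this sum at P9-CTR, 31.1% ± 3.88 at P200-CTR-PBS and 26.7% ± 3.92 at P200-CTR-LPS.

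**Figure D1:**
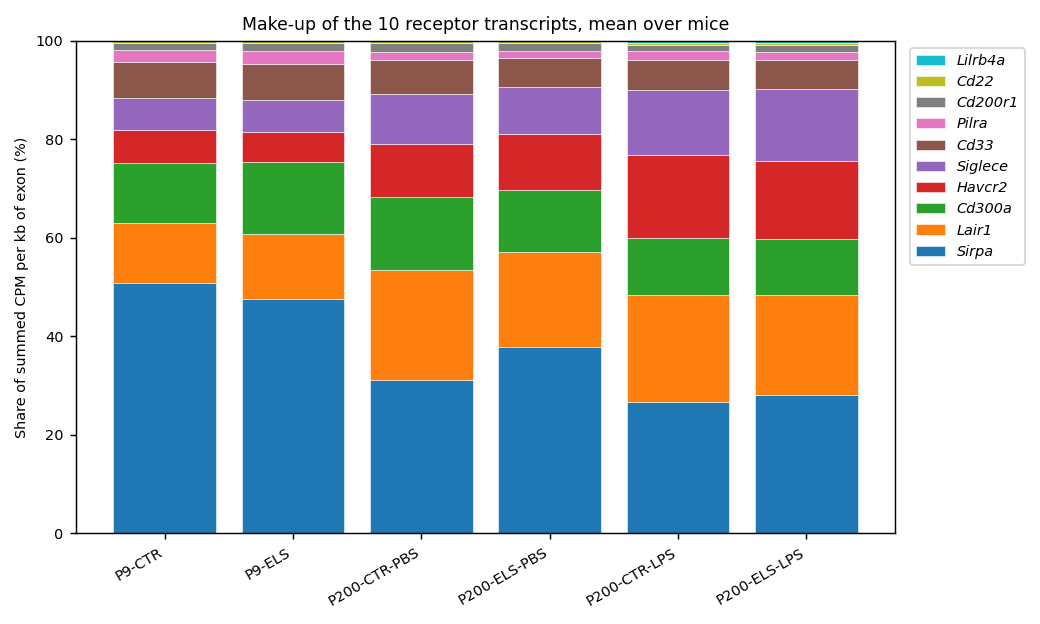
Stacked bars give, for each of the 6 groups, the mean share (%) of each receptor in the summed CPM per kb of exon of the 10 receptors. The share of Sirpa was 50.8% in P9-CTR and 26.7% in P200-CTR-LPS mice, that of Havcr2 6.61% and 17.0%, and that of Siglece 6.54% and 13.2%. The divisor was the full exon length, and the share of Siglece may be too low if strand was ignored in the counting.

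The first comparison asked whether early-life stress changed the receptors at P9, at the end of the stress. None of the 10 passed the test (edgeR's quasi-likelihood test over all 16696 genes, with an adjusted p under 0.05 and a log2 fold change beyond 0.1 in either direction), and 0% of all genes did. DESeq2 and limma also gave 0 of 10 here and in the other comparisons of ELS with CTR. The log2 fold change of the members, ELS against CTR, had a median of 0.02 and was above 0 for 6 of them, beside a median of 0.00258 over all genes. At an unadjusted p under 0.05 stood 1 of the 10, and 5.47% of all genes.

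That member was Cd300a, a receptor for phosphatidylserine and phosphatidylethanolamine. It lay at 216 (lowest), 275 (median) and 321 CPM (highest) in P9-CTR mice and at 264, 313 and 405 CPM in P9-ELS mice. The groups overlapped between 264 and 321 CPM, and the highest value was from the sparse mouse P9_19.3_ELS. On the log2 scale ELS was higher by 0.22 (SE 0.08, 95% interval 0.07 to 0.38, unadjusted p = 0.006, adjusted p = 0.863), and without the 3 sparse mice it was 0.18 with an adjusted p of 0.869.

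At P200 after PBS, the question was whether a difference was present in adulthood. None of the 10 receptors passed, against 0.168% of all genes, and 0 had an unadjusted p under 0.05 against 9.71% of all genes. Sirpa had the log2 fold change farthest above 0. Its level was 917, 1272 and 1494 CPM (lowest, median, highest) in P200-CTR-PBS and 1268, 1581 and 1792 CPM in P200-ELS-PBS mice. These groups overlapped, with a log2 fold change of 0.32 (SE 0.18, 95% interval -0.05 to 0.68) with an adjusted p of 0.612. The 6 members below 0 were Cd22 (-0.38), Cd300a (-0.19), Cd33 (-0.19), Lair1 (-0.16), Cd200r1 (-0.11) and Siglece (-0.06), with adjusted p from 0.595 to 0.968.

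After LPS, none of the 10 receptors passed between ELS and CTR mice, as was so for 0% of all genes. The members' log2 fold changes lay between -0.14 (Lilrb4a) and 0.17 (Siglece), and 0 of them against 4.78% of all genes had an unadjusted p under 0.05. Of the 9 ligand, 15 sialic acid, 12 effector, 11 activating and 15 other inhibitory genes tested, 0 passed in any of the 3 comparisons of ELS with CTR.

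The intervals show how large a difference these samples could have held. For the 9 receptors other than Lilrb4a, the 95% intervals of ELS against CTR reached from -0.38 (Havcr2) to 0.74 (Cd22) at P9, from -1.07 (Cd22) to 0.68 (Sirpa) at P200 after PBS, and from -0.63 to 0.83 (both Cd22) after LPS. For Lair1, the member with the narrowest intervals, they were -0.10 to 0.18, -0.36 to 0.04 and -0.26 to 0.16. For Lilrb4a they spanned -1.81 to 1.53 after LPS, so that the interval held differences of more than 2-fold in either direction. Behind each value of the other 9 members stood 49 counts or more, and behind Lilrb4a 0 to 693.

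**Figure D2:**
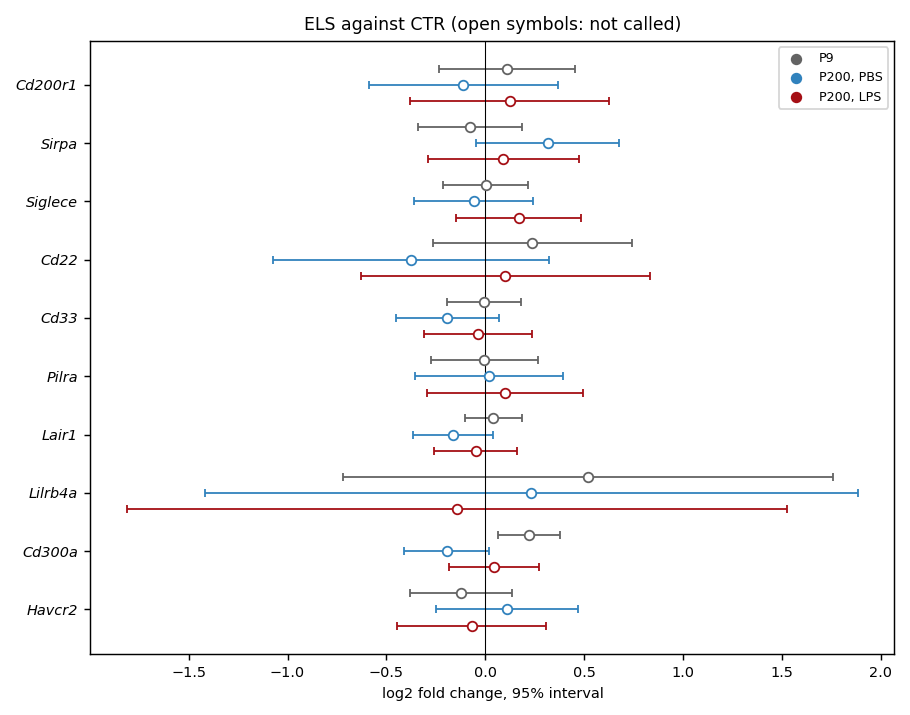
Points give the log2 fold change of ELS against CTR for each receptor at P9, at P200 after PBS and at P200 after LPS, and bars its 95% interval. All 30 symbols are open (not called), and the interval of Cd300a at P9, 0.07 to 0.38, is the one that does not include 0.

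Age was compared between P9 and the adults given PBS. Between P9-CTR and P200-CTR-PBS mice 7 of the 10 receptors passed, 6 higher and 1 lower in the adults, where 44.1% of all genes passed, 17.4% higher and 26.6% lower. The members' median log2 fold change was 0.67, beside -0.09 over all genes. Lair1, Havcr2 and Siglece doubled or nearly so, Cd300a, Cd200r1 and Cd22 rose by 1.498-fold to 1.70-fold, and Sirpa fell. In ELS mice 3 of 10 passed, Lair1, Havcr2 and Siglece, all higher, with 42.2% of all genes passing (17.15% higher, 25% lower). With a log2 fold change beyond 1 in either direction, 2 receptors passed in CTR (Lair1 and Havcr2) and 1 in ELS mice (Havcr2), against 26.4% and 26.2% of all genes. The groups compared did not overlap for 4 receptors in CTR and 3 in ELS mice, against 17.09% and 11.6% of all genes. Fewer cells of a type and less RNA per cell cannot be told apart in such sorted bulk samples. The border macrophage markers were higher at P9, where 7 of 7 passed in CTR and 5 of 7 in ELS mice, as were the neuron markers (47.7 to 124 CPM summed in P9-CTR, 2.49 to 11.9 in P200-CTR-PBS). Of 5 astrocyte markers 4 passed as lower and 1 as higher in adults of each condition. Those other than Slc1a3 summed to 71.9 to 201 CPM in P9-CTR and at most 14.4 CPM in P200-CTR-PBS mice. Slc1a3 lay at 72.1 to 159 and at 296 to 503 CPM. The neutrophil marker Cxcr2 lay at 9.08 to 20.0 CPM in P9-CTR and at most 0.153 CPM in P200-CTR-PBS mice. The microglia list was higher in adults (38556 to 61659 CPM in P9-CTR, 82757 to 90853 in P200-CTR-PBS), with 8 of 10 markers passing as higher and 1 as lower. The part of these markers in the age differences was not tested. Without the 3 sparse mice 9 receptors passed in CTR and 4 in ELS mice. The share of all genes that passed was not taken in that fit, here or for the gene lists below, so these counts have no share beside them.

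Lair1, the collagen and C1q receptor, had the smallest standard error of the 10. It lay at 420, 487 and 534 CPM (lowest, median, highest) in P9-CTR and at 937, 1043 and 1441 CPM in P200-CTR-PBS mice. In ELS mice the values were 367, 489 and 620 CPM at P9 and 873, 923 and 1145 CPM at P200. Every adult lay above every P9 mouse. Lair1 rose 2.25-fold in CTR (log2 1.17, SE 0.08, adjusted p = 1.04e-16) and 1.96-fold in ELS mice (log2 0.97, SE 0.09, adjusted p = 1.86e-13).

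Havcr2, the immune checkpoint TIM-3, was at 97.4, 150 and 186 CPM in P9-CTR and at 244, 309 and 389 CPM in P200-CTR-PBS mice. In ELS mice it was at 71.5, 119 and 230 CPM at P9 and at 275, 324 and 376 CPM at P200. All adults lay above all P9 mice. The coefficient of variation over mice was 35.8% in P9-ELS and 16.1% in P9-CTR mice. Among P9-ELS mice nest 9 had 163, 215 and 230 CPM, and nest 19 had 81.5, 98.8 and 184 CPM. Nests 53 and 55 had 71.5 to 135 CPM, so spread between mice and between nests cannot be told apart here. The rise was 2.05-fold in CTR (log2 1.03, SE 0.15, adjusted p = 1.29e-07) and 2.40-fold in ELS mice (log2 1.26, SE 0.15, adjusted p = 1.45e-09).

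Siglece, a sialic acid lectin found on myeloid cells, was at 96.9, 132 and 142 CPM in P9-CTR and at 216, 240 and 260 CPM in P200-CTR-PBS mice. In ELS mice it was at 47.7, 130 and 172 CPM and then at 176, 240 and 252 CPM. Again no adult fell into the range of the P9 mice, and the lowest P9-ELS value was from the sparse mouse P9_19.2_ELS. Its rise was 1.91-fold in CTR (log2 0.93, SE 0.13, adjusted p = 2.47e-08) and 1.83-fold in ELS mice (log2 0.87, SE 0.13, adjusted p = 2.17e-07). Of its exon bases 39.3% are shared with Ceacam18 on the opposite strand, a gene at no more than 5.70 CPM in any mouse. The strand setting of the counting is not given in the sources used here. If strand was ignored, reads in the shared bases may be assigned to neither gene. The low Ceacam18 level then does not bound what Siglece lost.

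Cd300a had the lowest p of the 10 in the test of whether age acted differently in the conditions. CTR mice went from 216, 275 and 321 CPM (lowest, median, highest) at P9 to 368, 413 and 462 CPM at P200, with no overlap, and ELS mice from 264, 313 and 405 CPM to 311, 366 and 408 CPM, with wide overlap. In CTR mice this was a log2 fold change of 0.58 (SE 0.09, adjusted p = 5.77e-07), and in ELS mice one of 0.17 (SE 0.09, adjusted p = 0.156). The difference between these, tested as an interaction of condition and age, was -0.42 (SE 0.13, 95% interval -0.68 to -0.15, unadjusted p = 0.00278), with an adjusted p of 0.267 that missed the threshold. None of the 10 receptors passed this interaction test, against 0.0299% of all genes, and 1 of 10 had an unadjusted p under 0.05 against 10.3% of all genes.

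Sirpa, the receptor for Cd47, was the member that passed as lower in adults. It was at 1045, 1689 and 1955 CPM in P9-CTR and at 917, 1272 and 1494 CPM in P200-CTR-PBS mice, and these groups overlapped, the lowest adult being the sparse mouse P200_1.1_CTR_PBS. Sirpa fell by 0.40 on the log2 scale (SE 0.16, adjusted p = 0.0325). The call was lost in 7 of the 19 fits that each left out 1 mouse, with adjusted p from 0.051 to 0.0869. These mice were P9_15.2_CTR, P9_17.2_CTR, P9_17.3_CTR, P9_52.2_CTR, P200_1.1_CTR_PBS, P200_15.1_CTR_PBS and P200_18.1_CTR_PBS. It was also lost with no filter on low counts (adjusted p = 0.0671), with the filterByExpr filter of edgeR (adjusted p = 0.0835) and in limma-voom with the nest as a random effect (adjusted p = 0.0563). Without the 3 sparse mice the value was -0.34 (adjusted p = 0.00664). In ELS mice the value was -0.01 (SE 0.16, adjusted p = 0.97), and the interaction had an adjusted p of 0.555. Both include the sparse mouse P9_19.2_ELS at 376 CPM, against 1293 CPM or more in the other P9-ELS mice. The ELS value without the sparse mice is not reported here.

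Among the less abundant receptors, Cd200r1, which pairs with neuronal Cd200, lay at 16.1 to 30.7 CPM in P9-CTR and at 26.8 to 40.0 CPM in P200-CTR-PBS mice, a log2 fold change of 0.63 (SE 0.20, adjusted p = 0.00858). Cd22, best known as a B cell receptor for sialic acid, lay at 3.34 to 16.1 and at 7.92 to 21.1 CPM in the same groups (0.77, SE 0.29, adjusted p = 0.0282). The Cd22 call was lost without mouse P200_1.1_CTR_PBS, P200_5.1_CTR_PBS or P200_8.1_CTR_PBS, with adjusted p from 0.0531 to 0.0762, and with counts summed per nest (adjusted p = 0.0654). In the ELS mice neither passed, with 0.41 (adjusted p = 0.107) for Cd200r1 and 0.16 (adjusted p = 0.715) for Cd22. B cell markers, led by Ighm, summed to 751 to 958 CPM in P9-CTR and 486 to 616 CPM in P200-CTR-PBS mice. Without Ighm the list summed to 114 to 177 CPM in the former and 32.0 to 60.9 CPM in the latter. Of this list 2 genes were tested, and both passed as lower in adults. Ms4a1 was at 0 in P9-CTR and at most 0.504 CPM in P200-CTR-PBS mice. The part of these markers in the Cd22 level was not tested. The noncoding gene Gm29439 shares exon bases with Cd22 on the opposite strand, and its median was 1.16 CPM in P9-CTR and 2.98 CPM in P200-CTR-PBS mice.

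Cd33 and Pilra did not pass in either condition. Cd33, whose human counterpart is linked to the risk of Alzheimer's disease, had a log2 fold change of 0.23 (adjusted p = 0.0795) in CTR mice. It passed without mouse P9_58.1_CTR, P9_58.2_CTR or P200_1.1_CTR_PBS (adjusted p from 0.0385 to 0.0428), without the 3 sparse mice (adjusted p = 0.00409), with filterByExpr (adjusted p = 0.0209) and when only the groups compared were fitted (adjusted p = 0.0251). Pilra had -0.33 (adjusted p = 0.0917) and passed without mouse P200_15.1_CTR_PBS (adjusted p = 0.0359) and without the 3 sparse mice (adjusted p = 0.0315). It shares 468 of its 3090 exon bases with Zcwpw1 on the opposite strand, whose median was 29.2 CPM in P9-CTR and 13.1 CPM in P200-CTR-PBS mice. Lilrb4a was near the limit of detection at both ages, with 0 to 1.76 CPM in P9-CTR and 0 to 1.92 CPM in P200-CTR-PBS mice.

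**Figure D3:**
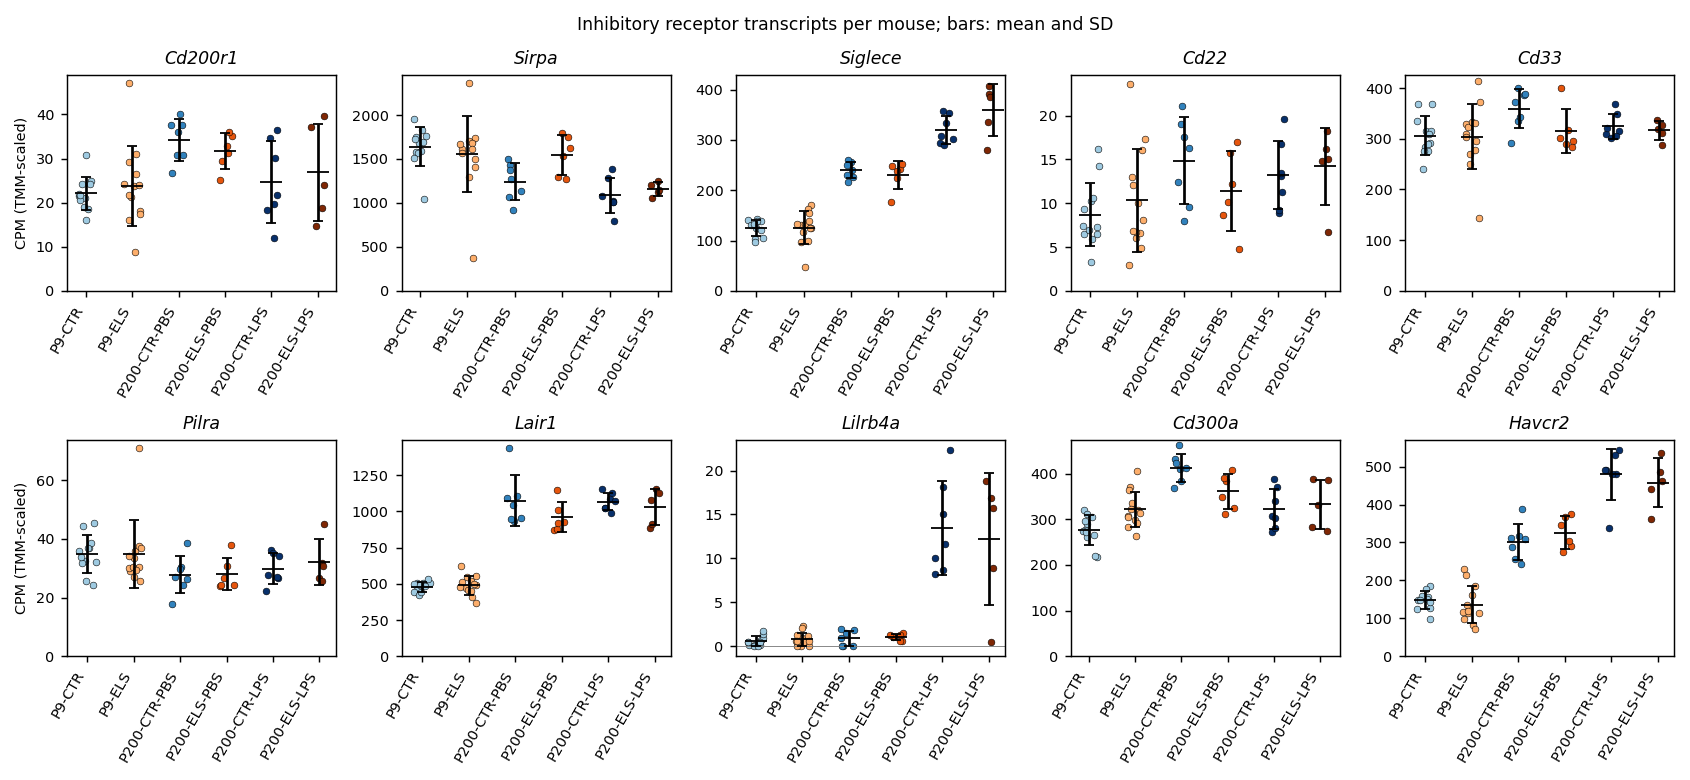
Each of the 10 panels gives the TMM-scaled CPM of 1 receptor, with a point per mouse and the mean and SD of each of the 6 groups. Lair1, Havcr2 and Siglece of all P200 mice lie above those of all P9 mice, and Lilrb4a reaches 8.23 to 22.4 CPM in P200-CTR-LPS mice.

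The genes around the receptors were compared with age too. Of the ligands and their like, 8 of 9 tested passed in CTR mice, 4 higher and 4 lower, and 5 in ELS mice, 2 higher and 3 lower, beside 44.1% and 42.2% of all genes. Among those with a mean log2 CPM of at least 1, Cd47, the partner of Sirpa, rose by 0.52 in CTR and 0.45 in ELS mice (adjusted p = 0.000139 and 0.00122), and Ceacam1 rose by 0.90 and 0.78 (adjusted p = 0.000329 and 0.00241). C1qa, which binds Lair1, rose by 0.55 in CTR mice (adjusted p = 0.005), and Hmgb1 fell by 1.22 and 1.53 on the log2 scale in CTR and ELS mice (adjusted p = 6.10e-09 and 8.83e-11). Of the ligands tested, 8 in CTR and 6 in ELS mice passed in the fit without the 3 sparse mice.

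Sialic acid genes passed in 4 of 15 cases in CTR mice, 3 higher and 1 lower, and in 6 in ELS mice, 5 higher and 1 lower, where 44.1% and 42.2% of all genes passed. Leaving out the 3 sparse mice gave 6 in CTR and 7 in ELS mice. St3gal6, a sialyltransferase, rose from a median of 291 to one of 711 CPM in CTR mice with no overlap of the groups (log2 fold change 1.302, SE 0.09, adjusted p = 1.22e-17) and by 1.18 in ELS mice (adjusted p = 1.03e-15). In ELS mice St3gal2, another sialyltransferase, rose by 0.95 (adjusted p = 0.0223). The transporter of the activated sugar, Slc35a1, rose by 0.91 and 0.54 (adjusted p = 1.57e-07 and 0.00115). Gne, which starts its synthesis, rose by 0.52 and 0.61 (adjusted p = 0.0256 and 0.0117), and the synthase Nans fell by 0.37 and 0.39 (adjusted p = 0.01 in both).

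Of 12 effector genes, 7 passed in CTR mice (4 higher, 3 lower) and 9 in ELS mice (6 higher, 3 lower), against the same 44.1% and 42.2% of all genes. The counts were 10 in CTR and 9 in ELS mice in the fit without the 3 sparse mice. The adaptor Dok2 fell from a median of 9.88 to 0.205 CPM in CTR mice (log2 fold change -4.78, adjusted p = 3.30e-07), while its relative Dok1 rose by 0.99 (adjusted p = 0.000383). Fyn, a Src family kinase, fell by 2.12 on the log2 scale (adjusted p = 1.70e-05) and the phosphatase Ptpn11 fell by 1.09 (adjusted p = 5.05e-05). In ELS mice Dok2 (-4.29), Fyn (-3.13) and Ptpn11 (-1.02) were lower and the kinase Fgr (1.75) was higher, with adjusted p of at most 0.014. Ptpn6, the main phosphatase of these receptors, did not pass, with a median of 387 CPM in P9-CTR and 339 CPM in P200-CTR-PBS mice (-0.22, SE 0.16, adjusted p = 0.259).

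Other inhibitory receptors passed in 10 of 15 cases in each condition, 5 higher and 5 lower, with 44.1% of all genes passing in CTR and 42.2% in ELS mice. Their number was 12 in CTR and 10 in ELS mice when the 3 sparse mice were left out. Pdcd1 (PD-1) rose by 2.60 and 2.74 in CTR and ELS mice (adjusted p = 1.01e-06 and 4.17e-07), and Vsir, the checkpoint VISTA, by 1.51 and 1.60 (adjusted p = 1.80e-10 and 6.09e-11). The log2 fold changes of Milr1 were -1.97 and -1.84 (adjusted p = 3.74e-12 and 1.06e-10). Those of Cd300lf, a relative of Cd300a, were -1.19 and -1.32 (adjusted p = 0.0144 and 0.00975). Of 11 activating counterparts, 0 passed in CTR mice, also at an unadjusted p under 0.05 (50.4% of all genes), and 5 in ELS mice, where the adaptors Tyrobp (-0.51, adjusted p = 0.000649) and Fcer1g (-0.54, adjusted p = 0.00509) were lower and Syk was higher (0.57, adjusted p = 0.0213). Without the 3 sparse mice 2 activating counterparts passed in CTR and 5 in ELS mice. The interaction of condition and age for Tyrobp had an adjusted p of 0.403.

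The last pair of comparisons asked how the receptors responded 3 h after LPS, against the same PBS mice as in the comparison with P9. All 5 of the LPS response genes checked (Il1b, Tnf, Nfkbia, Ccl2 and Il1a) passed as higher in both conditions. In CTR mice 4 of 10 receptors passed, Lilrb4a, Havcr2 and Siglece higher and Cd300a lower, where 14.9% of all genes passed (8.73% higher, 6.2% lower). In ELS mice 2 of 10 passed, Lilrb4a and Siglece, both higher, against 12.3% of all genes (7.4% higher, 4.94% lower). With a log2 fold change beyond 1 in either direction Lilrb4a passed in each condition, 1 of 10, against 9.62% of all genes in CTR and 7.86% in ELS mice. The median over the members was -0.08 on the log2 scale in CTR and 0.15 in ELS mice, beside 0.00468 and -0.04 over all genes. Groups did not overlap for Siglece and Lilrb4a in CTR mice and for Siglece and Sirpa in ELS mice, against 7.49% and 10% of all genes. Neutrophil markers summed to at most 1.84 CPM in P200-CTR-LPS and 9.99 CPM in P200-ELS-LPS mice, with Ly6g and Retnlg at 0 in both groups. The astrocyte list, led by Slc1a3, summed to 301 to 503 CPM in P200-CTR-PBS and 482 to 618 CPM in P200-CTR-LPS mice, and its other 4 genes to at most 17.6 CPM. The microglia list summed to 82757 to 90853 CPM in P200-CTR-PBS and 68757 to 82635 CPM in P200-CTR-LPS mice, with no overlap, and to 82678 to 88982 and 73315 to 84809 CPM in the ELS mice. In each condition 3 of its 10 genes, Sall1, P2ry12 and Gpr34, passed as lower, with Sall1 at -1.73 in CTR and -2.01 in ELS mice. The B cell list summed to 486 to 616 CPM in P200-CTR-PBS and 288 to 483 CPM in P200-CTR-LPS mice, and Ighm passed as lower in both conditions (-0.53 and -0.43). Monocyte markers summed to at most 11.0 CPM in any of these mice, and 1 of the 4 tested passed as higher in each condition, Fn1 in CTR and Vcan in ELS mice. The part of these lists in the results was not tested. Without the 3 sparse mice 4 receptors passed in each condition, and the share of all genes that passed was not taken in that fit.

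Lilrb4a had the largest response of the members. In P200-CTR-PBS mice its lowest, median and highest values were 0, 0.922 and 1.92 CPM, and 3 of the 7 mice had no count, which allows up to 3 counts in each. In P200-CTR-LPS mice they were 8.23, 11.7 and 22.4 CPM. In P200-ELS-PBS mice they were 0.597, 1.096 and 1.52 CPM.

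The 5 P200-ELS-LPS mice had 0.495, 8.95, 15.8, 16.9 and 18.9 CPM. The lowest, P200_11.2_ELS_LPS with 8 counts, lay below all P200-ELS-PBS mice, and the other 4 lay above all of them. In CTR mice every LPS mouse was above every PBS mouse. Lilrb4a rose by 3.92 on the log2 scale in CTR (SE 0.86, adjusted p = 0.000674; 15.17-fold, 95% interval 4.57 to 50.3) and by 3.55 in ELS mice (SE 0.93, adjusted p = 0.00599; 11.7-fold, 3.21 to 42.6). Without the lowest mouse the ELS value was 3.86 (adjusted p = 0.00255).

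Neighbouring genes limit the precision of Lilrb4a and may lower its counted level. Of its exon bases 35.1% are shared on the same strand with Gm49339, a gene at no more than 0.2 CPM in any mouse. Reads in the shared bases may be assigned to neither gene, so that the low Gm49339 level does not bound what Lilrb4a lost. The near-identical copy of Lilrb4a, Lilrb4b, could take or lose reads when unique reads are counted. Lilrb4b, listed as Lilr4b, had a median of 2.85 CPM in P200-CTR-PBS and 5.505 CPM in P200-CTR-LPS mice, with 0.36 to 10.0 CPM in the latter, so that the split of reads within the pair is uncertain.

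Havcr2 was at 244, 309 and 389 CPM in P200-CTR-PBS and at 338, 490 and 545 CPM in P200-CTR-LPS mice, where the lowest LPS mouse, P200_5.3_CTR_LPS, lay within the PBS range. Its rise was 1.59-fold (log2 0.67, SE 0.17, adjusted p = 0.00427). The P200-ELS-LPS mice had 362, 441, 462, 485 and 537 CPM, against 275, 324 and 376 CPM in P200-ELS-PBS mice, and 1 of the 5 lay within that range. In ELS mice the difference was 0.49 on the log2 scale (SE 0.19, adjusted p = 0.0908), and without the 3 sparse mice, none of them in these groups, it was 0.49 with an adjusted p of 0.0444. It also passed when only the groups compared were fitted, with counts summed per nest, with the nest as a random effect and with the nest number as a replicate block, with adjusted p from 0.00669 to 0.0431.

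Siglece was at 216, 240 and 260 CPM in P200-CTR-PBS and at 291, 308 and 358 CPM in P200-CTR-LPS mice. The P200-ELS-LPS mice had 280, 335, 384, 391 and 408 CPM, against 176, 240 and 252 CPM in P200-ELS-PBS mice. In both conditions all LPS mice lay above all PBS mice. Siglece rose 1.33-fold in CTR (log2 0.42, SE 0.14, adjusted p = 0.0417) and 1.56-fold in ELS mice (log2 0.64, SE 0.16, adjusted p = 0.00426). The CTR call was lost in 9 of 14 fits that each left out 1 mouse (P200_1.1_CTR_PBS, P200_8.1_CTR_PBS, P200_15.1_CTR_PBS, P200_18.1_CTR_PBS, P200_18.2_CTR_PBS, P200_1.3_CTR_LPS, P200_8.2_CTR_LPS, P200_8.3_CTR_LPS or P200_15.2_CTR_LPS), with log2 fold changes from 0.39 to 0.42 and adjusted p from 0.0508 to 0.0807, and with no filter on low counts (adjusted p = 0.0956).

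Cd300a fell in CTR mice, from 368, 413 and 462 CPM after PBS to 272, 306 and 388 CPM after LPS (lowest, median, highest), with some overlap. It dropped by 0.36 on the log2 scale (SE 0.10, adjusted p = 0.0124), but missed the threshold with no filter on low counts (adjusted p = 0.0573), with counts summed per nest (adjusted p = 0.0684) and with the nest number as a replicate block (adjusted p = 0.0525). In ELS mice the value was -0.12 (SE 0.12, adjusted p = 0.59), with 275, 282, 331, 386 and 388 CPM after LPS. Sirpa did not pass, with -0.19 (SE 0.17, adjusted p = 0.535) in CTR and -0.42 (SE 0.20, adjusted p = 0.175) in ELS mice, although the 5 P200-ELS-LPS mice (1052, 1121, 1147, 1208 and 1251 CPM) lay below all P200-ELS-PBS mice (1268 to 1792 CPM). Without the 3 sparse mice the ELS value for Sirpa was -0.42 with an adjusted p of 0.0136. It also passed when only the groups compared were fitted, with counts summed per nest and with the nest number as a replicate block, with adjusted p from 0.0246 to 0.0336.

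Lair1 stayed close to its level after PBS, with a log2 fold change of -0.01 (95% interval -0.20 to 0.18) in CTR and 0.11 (-0.11 to 0.32) in ELS mice. Cd200r1 spread more widely after LPS, at 12.0 to 36.6 CPM in P200-CTR-LPS against 26.8 to 40.0 CPM in P200-CTR-PBS mice, and did not pass (-0.47, SE 0.23, adjusted p = 0.174), although it did in limma-voom with the nest as a random effect (-0.59, adjusted p = 0.0325). Cd22, Cd33 and Pilra had values between -0.16 and 0.31 in the 2 conditions and adjusted p of at least 0.501. None of the 10 receptors passed the interaction of condition and LPS, where 0% of all genes passed, and 0 of 10 against 5.87% of all genes had an unadjusted p under 0.05. The interval of that difference was -0.21 to 0.66 for Siglece, -0.70 to 0.34 for Havcr2 and -2.72 to 1.97 for Lilrb4a.

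**Figure D4:**
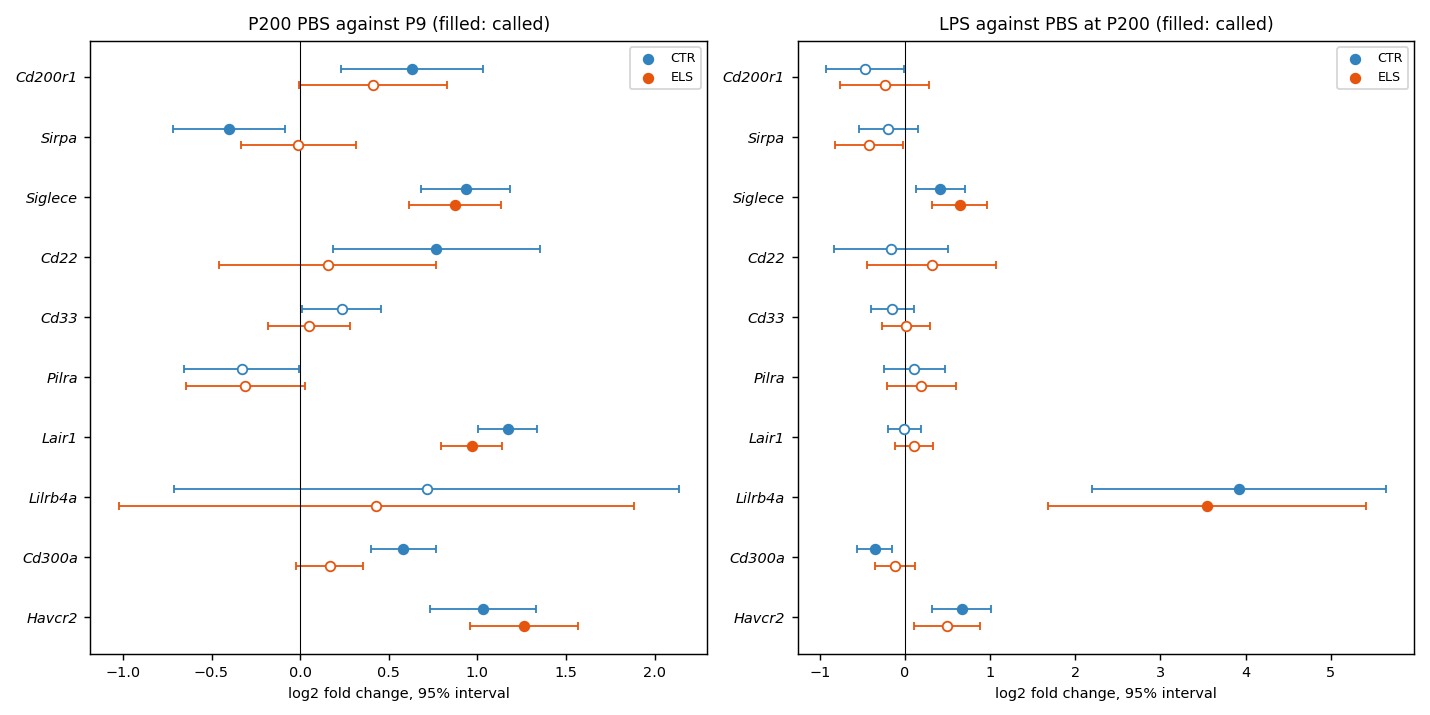
Points give each receptor's log2 fold change in CTR and ELS mice, for P200 after PBS against P9 on the left and for LPS against PBS on the right, with 95% intervals, and filled points passed the test. On the left 7 CTR and 3 ELS points are filled, and on the right Lilrb4a stands at 3.92 and 3.55 while the other members lie between -0.47 and 0.67.

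The surrounding genes were compared after LPS in the same way. Of 15 other inhibitory receptors 4 passed in CTR and 3 in ELS mice, beside 14.9% and 12.3% of all genes. Cd300lf rose from a median of 1.71 to 131 CPM in CTR mice (log2 fold change 6.28, SE 0.52, adjusted p = 4.63e-14) and was between 78.7 and 124 CPM in all 5 P200-ELS-LPS mice (5.84, SE 0.55, adjusted p = 4.94e-12). Fcgr2b, the inhibitory Fc receptor, rose by 0.41 and 0.57 (adjusted p = 0.0175 and 0.00301), and Clec4a2 was lower in CTR mice (-0.64, adjusted p = 0.00163).

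Among 15 sialic acid genes 5 passed in each condition, 1 higher and 4 lower, against 14.9% of all genes in CTR and 12.3% in ELS mice. Leaving out the 3 sparse mice gave 7 in each condition. The sialyltransferase St3gal1 rose by 2.66 in CTR and 3.46 in ELS mice (adjusted p = 0.00262 and 0.00066). St8sia4, which builds polysialic acid, was lower, with -1.74 and -1.89 (adjusted p = 0.00143 and 0.00394), as were St3gal5 with -0.62 and -0.75 (adjusted p = 0.0376 and 0.0293) and Gne with -0.71 and -0.86 (adjusted p = 0.023 and 0.0184).

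Effector genes passed in 4 of 12 cases in each condition, where 14.9% and 12.3% of all genes did. The counts were 5 in CTR and 6 in ELS mice when the 3 sparse mice were left out. The Src family kinase Fgr rose in CTR and ELS mice (2.77 and 3.07, adjusted p = 0.00296 and 0.00394), and Csk, which restrains that family, was lower (-0.69 and -0.71, adjusted p = 0.00864 and 0.0221). Dok1 was lower in CTR mice (-0.95, adjusted p = 0.00809) and Dok2 higher in ELS mice (2.52, adjusted p = 0.0181). Of the ligands 0 of 9 passed in CTR mice (4 at an unadjusted p under 0.05, as for 26.5% of all genes), and C1qa passed in ELS mice (0.67, adjusted p = 0.0246). With the 3 sparse mice left out, 2 ligand genes passed in each condition. Of the activating counterparts 0 of 11 passed in CTR mice (1 at an unadjusted p under 0.05), while Tyrobp (0.54, adjusted p = 0.00845) and Fcer1g (0.67, adjusted p = 0.0126) rose in ELS mice. In the fit that left out the 3 sparse mice, 1 activating counterpart passed in CTR and 2 in ELS mice. The interaction of condition and LPS had an adjusted p of 0.398 for Tyrobp and 0.841 for Fcer1g.

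Across the 50 mice, the genes most like each receptor were those with the highest Pearson r of log2 CPM, given as a description, since all points share the 6 groups. Lair1 was most like Pmp22 (r = 0.967), Tspan13 (0.963) and Klk8 (0.956), and Siglece was most like Syngr2 (0.954), Tmem185b (0.94) and Kctd11 (0.939). Havcr2 was most like Irf2 (0.939), Ifnar2 (0.922) and Tgm2 (0.921), and Sirpa most like Ncln (0.931), Man2b1 (0.927) and Gm16982 (0.918). With group means removed and the 3 sparse mice left out, r in the same order was 0.524, 0.224 and -0.000825 for Lair1 and 0.659, 0.212 and 0.416 for Siglece. It was 0.594, 0.465 and 0.255 for Havcr2 and 0.816, 0.848 and 0.741 for Sirpa. Lilrb4a was nearest to Etv3 (0.834), Fosl2 (0.824) and Ppox (0.818). Cd300a was nearest to Tmem37 (0.796), Dhrs7b (0.763) and Gm20496 (0.749).

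For Cd200r1 the nearest genes were Lims1 (0.814), P2ry12 (0.811) and Scoc (0.799), for Pilra Psmc4 (0.781) was nearest and Sdhb (0.75) was among the next, and for Cd33 Tcirg1 (0.769), Epc1 (0.752) and Mmab (0.749). The Cd33 values fell to 0.50, 0.462 and 0.474 without the 3 sparse mice. Cd22 had its highest r with Gm29439 (0.878), the gene that shares exon bases with it, followed by Il10ra (0.703) and Tob2 (0.687). After the group means were removed and the 3 sparse mice left out, the 45 pairs among the 10 receptors had r between -0.45 (Lair1 and Lilrb4a) and 0.57 (Cd33 and Havcr2), with a median of 0.0383, and 24 of the 45 were above 0.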

How the data were processed

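The authors sequenced each sorted sample on a NovaSeq6000, trimmed reads with cutadapt 2.10, aligned them with STAR to GRCm39 and counted unique exonic reads per gene with HTSeq 0.11.0. The deposited values are these raw counts, 1 library per mouse. The annotation release and strand setting are not given in the sources used here.

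Counts were scaled by TMM (edgeR 4.0.16, R 4.3.3), which also gives the CPM values. The model held 1 mean per group for all 50 mice, and edgeR's quasi-likelihood test gave 9 contrasts, adjusted by Benjamini-Hochberg over 16696 genes. Log2 CPM used a prior count of 2. Exon lengths and positions came from GENCODE vM39. The fit was tested on simulated data, where it missed part of the planted changes, more often at low counts. A first requirement on recovery over all levels was missed, and recovery was then required of well counted genes only. The members and lists were chosen with earlier results of these data known. Named list genes were up to 4 passing genes with the largest change and a mean log2 CPM of at least 1. Some genes that the rules select are not reported here. No 2 mice of the same group agreed within sampling noise, and mice of different groups were not compared in this way. Every P200 nest held both PBS and LPS mice, and the main fit did not use this pairing. Taken over all genes tested, deviations of PBS and LPS mice from their group means had r between -0.041 and 0.0841 within nests. Such an r does not decide whether littermates were alike for a single receptor. Alternatives were other tests, scalings, filters, samples and thresholds, DESeq2 1.42.0 and limma 3.58.1 among them. The intervals cover the spread between mice, and littermates may be alike.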

Additional observations from a re-analysis of the deposited data

Results flagged for a closer look

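The levels of the 10 receptors in the 4 groups of P200 mice were searched for a mouse far from the rest of its group (Dixon's test at its 95% critical value), which gave 4 flags in 40 groups, where chance flags about 1 in 20. Mouse P200_20.2_ELS_PBS had the lowest Siglece level at 176 CPM, and mouse P200_2.1_ELS_PBS the highest Cd33 level at 399.6 CPM. Mouse P200_1.1_CTR_PBS, the adult with the fewest genes detected, had the highest Lair1 level at 1441 CPM, and mouse P200_5.3_CTR_LPS had the lowest Havcr2 level at 338 CPM. The P9 groups were larger than the critical values used here cover and were not searched. In them the sparse mouse P9_19.2_ELS had 376 CPM of Sirpa, against 1293 CPM or more in the other P9-ELS mice. Its Cd200r1 was at 47.1 CPM against at most 31.0, and its Pilra at 71.2 CPM against at most 37.8.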

How the results depend on the processing

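The number of receptors that passed was 0 in all fits of the 3 comparisons of ELS with CTR and of both interactions. A threshold of an absolute log2 fold change above 1 left 2 of 7 with age in CTR mice, 1 of 3 with age in ELS mice, 1 of 4 after LPS in CTR mice and 1 of 2 after LPS in ELS mice. With no filter on low counts 2 passed after LPS in CTR mice. After LPS in ELS mice 4 passed when only the groups compared were fitted, when counts were summed per nest and without the mice with under 16000 genes detected. The nest number as a replicate block among P200 mice also gave 4 in ELS mice and gave 3 in CTR mice. Leaving out 1 mouse at a time gave 6 to 8 receptors with age in CTR, 3 to 4 with age in ELS, 3 to 4 after LPS in CTR and 2 after LPS in ELS mice, and 0 in the comparisons of ELS with CTR and both interactions. No receptor reversed direction among those with an unadjusted p under 0.05. The cause of these shifts was not tested. Shares of all genes were taken from the main fit only, so the counts from other fits have no share beside them. Receptors at low counts, Lilrb4a above all, have wide intervals at this depth.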
